A study of Rattus norvegicus with 2 samples.

Results

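The 6 genes described here encode the 5 kainate receptor subunits (Grik1 to Grik5, for the proteins GluK1 to GluK5) and the delta receptor GluD1 (Grid1). Each was found by its symbol in the deposited gene tables, where each has 1 row among the 25399 genes of the series. They were followed in the orbitofrontal cortex, a prefrontal region, of 8-week-old male Sprague-Dawley rats. The METH group received methamphetamine, a psychostimulant that releases dopamine, at 1 mg/kg by intraperitoneal injection for 7 days, and the saline group received saline on the same schedule. Tissue came from 4 animals per group and 1 single-nucleus library was made per group. Nothing in the labels says how the 4 animals were pooled, so each value describes a library and no difference has a replicate check.

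Kainate receptors are tetrameric glutamate-gated cation channels found on both sides of the synapse, where they shape transmitter release and neuronal excitability. GluK1, GluK2 and GluK3 form channels on their own, while GluK4 and GluK5 have a higher affinity for kainate and reach the membrane only together with GluK1, GluK2 or GluK3. Neto1 and Neto2 are auxiliary subunits that slow the gating of these receptors. GluD1 has the fold of an ionotropic glutamate receptor but acts mainly as an adhesion protein, bound through cerebellins to presynaptic neurexins.

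The METH library held 44969322 UMIs (unique molecular identifiers, each standing for 1 captured RNA molecule) and the saline library 42221257. Filters and doublet removal left 5159 METH and 6509 saline nuclei, and 9 barcodes occurred in both libraries. Clusters were named from marker genes, and none of the 6 genes was used to form the clusters. Levels are in CPM, UMIs of a gene scaled by all UMIs of its cell type in the library, and are compared within a gene only. Values are given for 7 classes and, within the neurons, 13 subclasses with at least 50 nuclei in each library. The median UMIs per nucleus were 6405.5 in saline excitatory neurons and 1046 in saline endothelial nuclei. Summed oligodendrocyte markers, none at 0 in astrocytes, were at 146 CPM in METH and 288 CPM in saline astrocytes, and at 49.1 and 87.6 CPM in excitatory neurons. The part of such stray RNA in the differences below was not tested. A cluster of 140 METH nuclei and 1 saline nucleus carried inhibitory markers but also Meis1, Pbx3 and Eya2 among its leading genes, and it was left out of every class. A mixed cluster of 180 METH and 229 saline nuclei with excitatory and microglial genes was left out too.

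Names of cell types rest on markers fixed for each type. Of the excitatory subclasses, layer 6 corticothalamic nuclei held Foxp2 in 99.2%, Syt6 in 71.7% and Rprm in 13% of nuclei. Layer 2/3 intratelencephalic nuclei, which project within the forebrain, held Cux2 in 96.5%, Otof in 59.3% and Calb1 in 30.2%. Layer 4/5 nuclei held Rorb in 95.3%, Hgf in 46.9%, Whrn in 37.2% and Rspo1 in 0.24%. Deep-layer intratelencephalic nuclei held Rxfp1 in 82.6%, Deptor in 51%, Tll2 in 25.5% and Oprk1 in 0.895%. The layer 5/6 near-projecting subclass rests mainly on Vwc2l, seen in 96.9% of nuclei, since Tshz2 was seen in 8.46% and Trhr in 0.445%. Among interneurons, Vip was seen in 92.9% of the Vip subclass, with Chat in 30.5%, Calb2 in 18% and Crh in 17.7%. The Sst subclass held Elfn1 in 77.6%, Sst in 72.4%, Crhbp in 42.4% and Chodl in 1.25%. Cnr1 was seen in 95% of the Sncg subclass. The other markers of the Sncg subclass were less common, with Cck in 48.5% of nuclei and Sncg and Slc17a8 in 5.5% each. That name thus rests mainly on Cnr1. The fast-spiking Pvalb subclass held Pvalb RNA in 30.6% of nuclei, Btbd11 in 92.2%, Mybpc1 in 25.2% and Eya1 in 1.41%. Of the neuron clusters that did not meet the naming rule, 4 had at least 50 nuclei in each library, and they are called by a leading gene or a leading marker. The Pld5 cluster was closest to the layer 2/3 markers, with Cux2 in 89.7%, Calb1 in 15.3% and Otof in 5.59% of nuclei. The Il1rapl2 cluster was closest to deep-layer intratelencephalic markers, with Rxfp1 in 74%, Deptor in 60%, Tll2 in 3.62% and Oprk1 in 0.542%. The Vat1l cluster was closest to layer 5 extratelencephalic markers, with Bcl11b in 96.5%, Npr3 in 31.3% and Lratd2 in 1.02%. The Sv2c cluster of interneurons was closest to the Lamp5 markers, with Sv2c in 94.1%, Lamp5 in 52.5% and Eya4 in 2.52%.

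**Figure D1:**
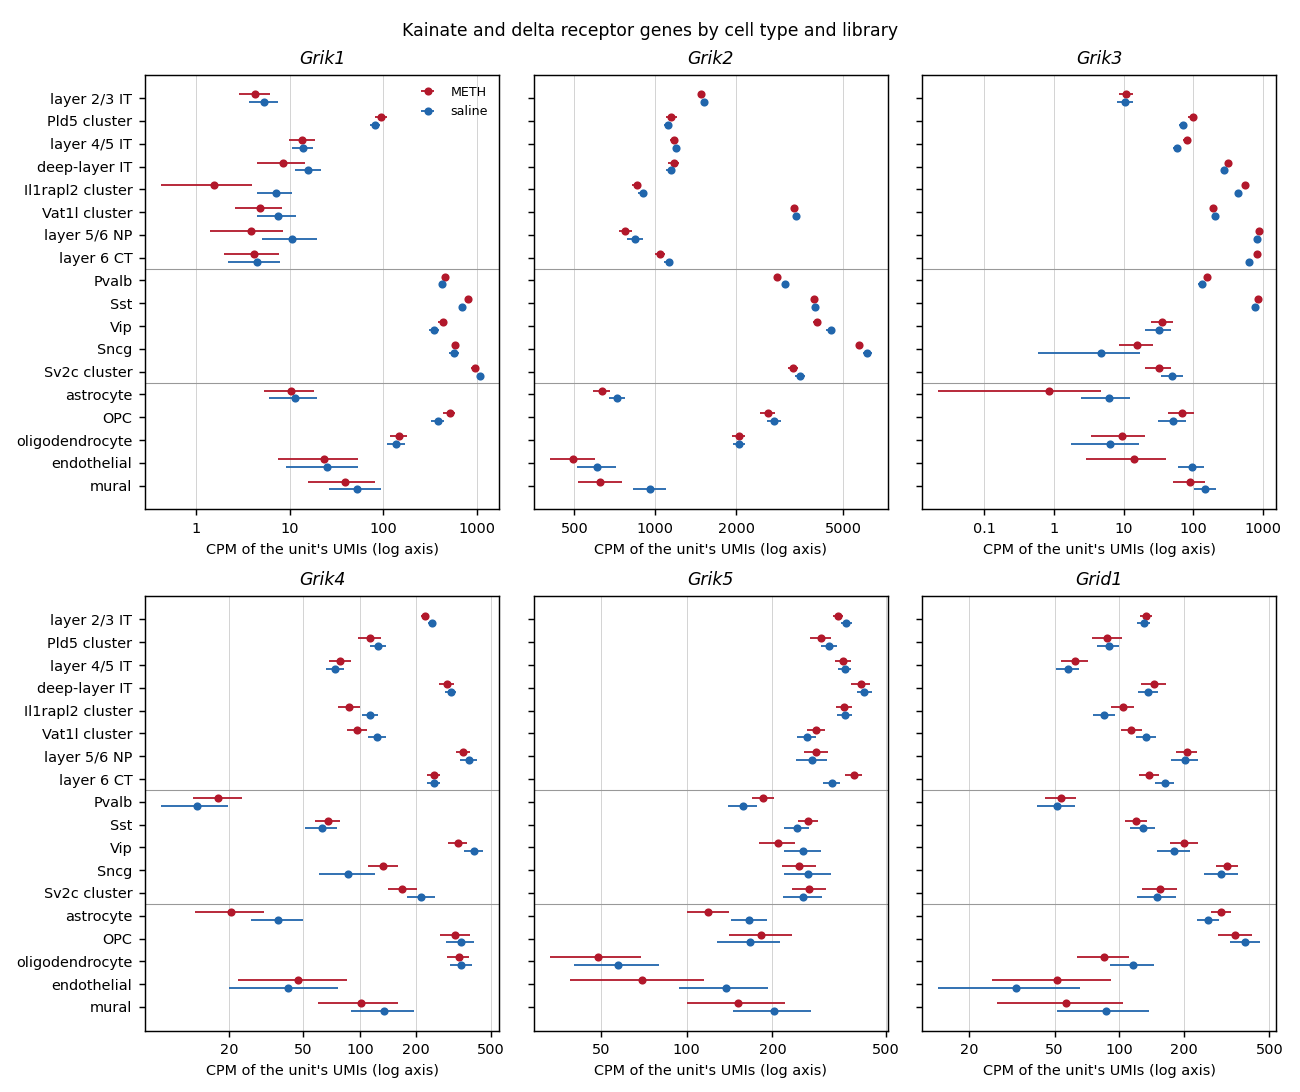
Levels of the 6 receptor genes in CPM (log axis, scale differs between panels) in 8 excitatory subclasses, 5 interneuron subclasses and 5 non-neuronal classes, separated by grey lines, for the METH library (red) and the saline library (blue). Bars are exact 95% Poisson intervals (IT, intratelencephalic; NP, near-projecting; CT, corticothalamic; OPC, oligodendrocyte precursor). Grik1 lies at 349 CPM or above in every interneuron subclass, and among the excitatory subclasses Grik3 ranges from 10.6 CPM in layer 2/3 to 870 CPM in near-projecting nuclei.

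Grik1, which encodes the low-affinity channel subunit GluK1, was an interneuron and oligodendrocyte-lineage transcript in both libraries. Inhibitory neurons held it at 665 CPM (95% Poisson interval 647 to 682) in METH and 633 (613 to 654) in saline. Excitatory neurons held it at 12.4 CPM (11 to 13.9) in METH and 17.9 (16.3 to 19.6) in saline, so the inhibitory level was 53.6-fold (47.5 to 60.7) higher in METH and 35.4-fold (32.1 to 39.1) higher in saline. The intervals here cover counting error only, and the pairs of cell types set against each other in folds were picked after their levels were seen. Of the excitatory Grik1 UMIs, 162 of 278 in METH and 258 of 454 in saline lay in the Pld5 cluster.

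Among interneurons the Sv2c cluster stood highest for Grik1, at 947 CPM (879 to 1020) in METH and 1089 (1008 to 1174) in saline. The Sst subclass, interneurons that release somatostatin, followed at 814 and 701 CPM, the Sncg subclass at 591 and 574, the Pvalb subclass at 454 and 423, and the Vip subclass at 431 and 349. The Sv2c cluster exceeded the Vip subclass 2.2-fold (1.94 to 2.5) in METH and 3.12-fold (2.69 to 3.63) in saline. The first 3 positions were held by the same subclasses in both libraries. The Sv2c cluster and the Sst subclass did not overlap with the next position in either library, while the Sncg interval overlapped that of oligodendrocyte precursors in METH.

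Within the excitatory neurons Grik1 was concentrated in the Pld5 cluster, whose leading genes include Rorb, a transcription factor of middle cortical layers. It was at 95.1 CPM there in METH (81 to 111, 162 UMIs) and at 81 CPM in saline (71.4 to 91.5, 258 UMIs). Layer 4/5 nuclei had 13.6 and 13.9 CPM and layer 2/3 nuclei 4.27 and 5.37 CPM. The Pld5 cluster thus stood 22.3-fold (15 to 34.1) above layer 2/3 in METH and 15.1-fold (10.5 to 22.4) in saline. Grik1 is itself among the 10 leading genes of this cluster, although it was left out of the clustering.

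Oligodendrocyte precursors, the dividing glial progenitors, held Grik1 at 512 CPM (440 to 593) in METH and 381 (322 to 447) in saline, which overlapped the Pvalb level. Mature oligodendrocytes held 148 and 138 CPM, and the precursors exceeded them 3.47-fold (2.69 to 4.5) in METH and 2.77-fold (2.11 to 3.65) in saline. Astrocytes, with 10.3 and 11.3 CPM from 12 and 13 UMIs, were near the bottom of the range. At 1000 UMIs per nucleus, 35.3% of METH and 28% of saline precursors had a Grik1 UMI, against 4.3% and 2.25% of endothelial nuclei, which stand here for background. These endothelial shares rest on 4 of 93 and 2 of 89 nuclei. The 1000-UMI limit left out 52 METH and 73 saline endothelial nuclei, against 3 and 8 precursors. The shares before thinning were 61% and 44.8% for precursors and 3.45% and 3.7% for endothelial nuclei, whose median depth is lower.

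Grik2, which encodes GluK2, the other widely studied low-affinity channel subunit, was found in every class. It was at 3729 CPM (3688 to 3770) in METH and 3836 (3787 to 3887) in saline inhibitory neurons, 2.59-fold and 2.71-fold above the excitatory levels of 1442 and 1415 CPM. The Sncg subclass, named mainly by the cannabinoid receptor gene Cnr1, was highest in both libraries at 5735 and 6144 CPM. The Vip subclass had 3987 and 4491 CPM, the Sst subclass 3888 and 3929, the Sv2c cluster 3255 and 3455, and the Pvalb subclass 2832 and 3036. The Sncg level was 2.03-fold (1.95 to 2.1) the Pvalb level in METH and 2.02-fold (1.93 to 2.12) in saline.

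The Vat1l cluster was the excitatory group with interneuron-like Grik2 levels, at 3286 CPM (3218 to 3356) in METH and 3343 (3273 to 3415) in saline. Every other excitatory subclass lay between 775 and 1516 CPM. The Vat1l cluster exceeded layer 2/3 by 2.21-fold (2.15 to 2.28) in METH and 2.21-fold (2.14 to 2.27) in saline, and near-projecting nuclei, the lowest subclass, by 4.24-fold and 3.99-fold. Oligodendrocyte precursors had 2625 and 2762 CPM of Grik2 and oligodendrocytes 2044 and 2049, which placed both above 7 of the 8 excitatory subclasses. Astrocytes had 634 and 719 CPM and endothelial nuclei 494 and 606, so the oligodendrocyte level was 4.14-fold (3.39 to 5.09) the endothelial level in METH and 3.38-fold (2.85 to 4.04) in saline.

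Grik3, which encodes GluK3, the low-affinity subunit that needs the highest glutamate concentrations to open, had very different levels between subclasses of the same class. In deep excitatory layers it reached 870 CPM (824 to 917) in METH and 813 (757 to 873) in saline near-projecting nuclei, and 831 and 635 CPM in layer 6 corticothalamic nuclei. The Il1rapl2 cluster had 549 and 436 CPM, deep-layer intratelencephalic nuclei 320 and 274, and the Vat1l cluster 192 and 203. The other excitatory subclasses were lower: the Pld5 cluster had 99.2 and 72.5 CPM, layer 4/5 nuclei 82.6 and 58.8, and layer 2/3 nuclei 10.8 and 10.6. Near-projecting nuclei exceeded layer 2/3 nuclei 80.4-fold (63.8 to 103) in METH and 76.9-fold (59.6 to 101) in saline.

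In interneurons Grik3 belonged to the Sst subclass, with 857 CPM (820 to 894) in METH and 777 (736 to 820) in saline. That level was not separated from near-projecting nuclei, with folds of 0.985 (0.919 to 1.06) and 0.956 (0.874 to 1.05). Pvalb nuclei held 158 and 134 CPM, Vip nuclei 36.1 and 32.2, the Sv2c cluster 32.2 and 50, and Sncg nuclei 15.9 and 4.82 CPM from 14 and 2 UMIs. The Sst level was 23.7-fold (16.8 to 34.8) the Vip level in METH and 24.2-fold (15.9 to 38.7) in saline. Astrocytes had 1 and 7 UMIs of Grik3 and oligodendrocytes 6 and 4, the lowest levels of any class.

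**Figure D2:**
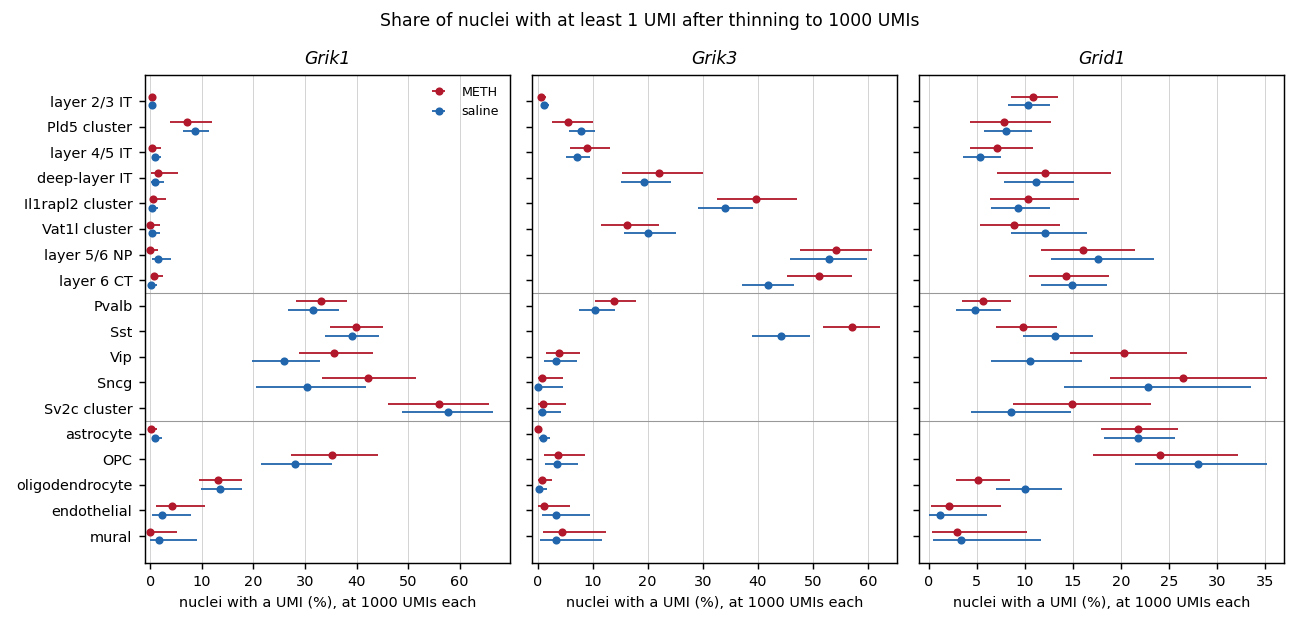
Share of nuclei with at least 1 UMI of Grik1, Grik3 or Grid1 after each nucleus was thinned to 1000 UMIs, for the METH (red) and saline (blue) libraries, with exact 95% binomial intervals. Grik3 was seen in 57.1% and 44.2% of Sst nuclei and in 0.618% and 1.13% of layer 2/3 nuclei, and endothelial nuclei give the background level.

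The contrast in Grik3 was also seen nucleus by nucleus. At 1000 UMIs each, 54.2% of METH and 52.9% of saline near-projecting nuclei and 51.2% and 41.8% of corticothalamic nuclei had a Grik3 UMI. Layer 2/3 nuclei had one in 0.618% and 1.13%, at or below the endothelial shares of 1.08% and 3.37%, which rest on 1 of 93 and 3 of 89 nuclei. Astrocytes had one in 0% (0 of 423, exact interval up to 0.868%) and 0.988%. Before thinning, 96.6% and 91.9% of corticothalamic nuclei and 2.07% and 4.94% of endothelial nuclei had a Grik3 UMI.

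Grik4, which encodes the high-affinity subunit GluK4, had its highest levels in an interneuron subclass, an excitatory subclass and the oligodendrocyte lineage. The Vip subclass held 334 CPM (297 to 374) in METH and 405 (359 to 455) in saline, and near-projecting nuclei held 355 (326 to 386) and 381 (343 to 422). Near-projecting nuclei were highest in METH and Vip interneurons in saline, with overlapping intervals. Oligodendrocytes, at 336 and 346 CPM, and oligodendrocyte precursors, at 323 and 345, stood beside them. Astrocytes had 20.6 and 36.6 CPM, so oligodendrocytes exceeded them 16.3-fold (10.7 to 26.1) in METH and 9.46-fold (6.77 to 13.5) in saline.

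Pvalb nuclei had the lowest Grik4 level, 17.6 CPM (12.9 to 23.5) in METH and 13.4 (8.7 to 19.8) in saline. The Vip level was 19-fold (13.9 to 26.5) above it in METH and 30.1-fold (20 to 47.3) in saline. Excitatory subclasses ran from 78.5 and 73.9 CPM in layer 4/5 through 224 and 243 in layer 2/3 and 248 and 249 in layer 6 corticothalamic nuclei to the near-projecting level. Deep-layer intratelencephalic nuclei, at 292 and 305 CPM, stood 3.32-fold (2.82 to 3.91) and 2.69-fold (2.38 to 3.06) above the Il1rapl2 cluster. After thinning, 27.2% and 30.1% of oligodendrocytes had a Grik4 UMI, against 2.15% and 4.49% of endothelial nuclei (45.8% and 37.2% against 4.14% and 4.94% before it).

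Grik5, which encodes the high-affinity subunit GluK5, the usual partner of GluK2, was the most even of the 6 across neurons. Excitatory neurons had 339 CPM (332 to 347) in METH and 344 (337 to 352) in saline, 1.49-fold (1.42 to 1.57) and 1.55-fold (1.46 to 1.64) above the inhibitory levels of 227 and 222. Deep-layer intratelencephalic nuclei were highest at 407 and 420 CPM and Pvalb nuclei lowest among neurons at 186 and 158, a span of 2.2-fold in METH and 2.66-fold in saline. In its order over 18 cell types, 12 of 17 neighbouring positions overlapped in the range of their METH and saline levels. Oligodendrocytes were lowest at 48.7 CPM (33.1 to 69.1) and 57.7 (40.4 to 79.9). Their precursors were 3.76-fold (2.41 to 5.97) and 2.88-fold (1.89 to 4.46) higher.

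Grid1 was highest in oligodendrocyte precursors, Sncg interneurons and astrocytes. Oligodendrocyte precursors had 346 CPM (287 to 413) in METH and 386 (327 to 453) in saline, Sncg interneurons 318 and 299, and astrocytes 299 and 260. The precursor level was 4.08-fold (2.94 to 5.73) above mature oligodendrocytes in METH and 3.35-fold (2.51 to 4.5) in saline. Near-projecting nuclei, with 206 and 203 CPM, led the excitatory subclasses and exceeded layer 4/5 nuclei, the lowest, by 3.31-fold (2.75 to 4) and 3.52-fold (2.9 to 4.26). Pvalb nuclei had 53.6 and 51.1 CPM, with the Sncg level 5.94-fold (4.84 to 7.33) and 5.85-fold (4.44 to 7.72) above them. After thinning, 21.7% of astrocytes in either library had a Grid1 UMI, against 2.15% and 1.12% of endothelial nuclei, which had 3.45% and 3.7% before thinning.

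Single subclasses hid further differences between clusters. The Sst subclass held 3 clusters of over 50 nuclei in each library and 1 of 13 and 8 nuclei. Its Pappa2 and Prdm1 cluster had the least Grik1 of the larger 3, at 464 and 404 CPM, and the most Grik3, at 1056 and 948 CPM. The Adgrv1 and Rbp4 cluster had 1269 and 1055 CPM of Grik1, 2.74-fold (2.45 to 3.05) and 2.61-fold (2.27 to 3) above the Pappa2 cluster. The Trabd2b and Tnc cluster had 2051 and 2097 CPM of Grik2, while the Pappa2 cluster had 4227 and 4382, 2.06-fold (1.92 to 2.21) and 2.09-fold (1.92 to 2.27) more. The small cluster led by Npsr1 and Ntn1, which also expresses Nos1, had 518 CPM of Grik4 (52 UMIs) in METH and 424 CPM (19 UMIs) in saline, against 39.8 to 76 CPM in the other Sst clusters.

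The 2 Pvalb clusters differed most in Grik2. The larger, led by Egflam and Plch1, had 3150 CPM in METH and 3413 in saline, and the smaller, led by Mybpc1 and Esr2, had 1128 and 940, a difference of 2.79-fold (2.54 to 3.08) and 3.63-fold (3.21 to 4.12). Grik1 ran the other way, at 421 and 397 CPM in the larger cluster and 631 and 569 in the smaller. Interneuron clusters with fewer than 50 nuclei per library reached beyond the subclass levels, and were picked out after their values were seen. A cluster led by Cpne4 and Ntng1 (44 and 32 nuclei) had 7345 and 7691 CPM of Grik2, and one led by Qrfpr (48 and 39 nuclei) had 1945 and 1816 CPM of Grik1. A cluster led by Col5a2 and Unc5b (25 and 17 nuclei) had 3 and 1 UMIs of Grik1 and 0 of Grik3 in both libraries, which at 3 counts allows up to 19.1 and 30 CPM of Grik3.

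**Figure D3:**
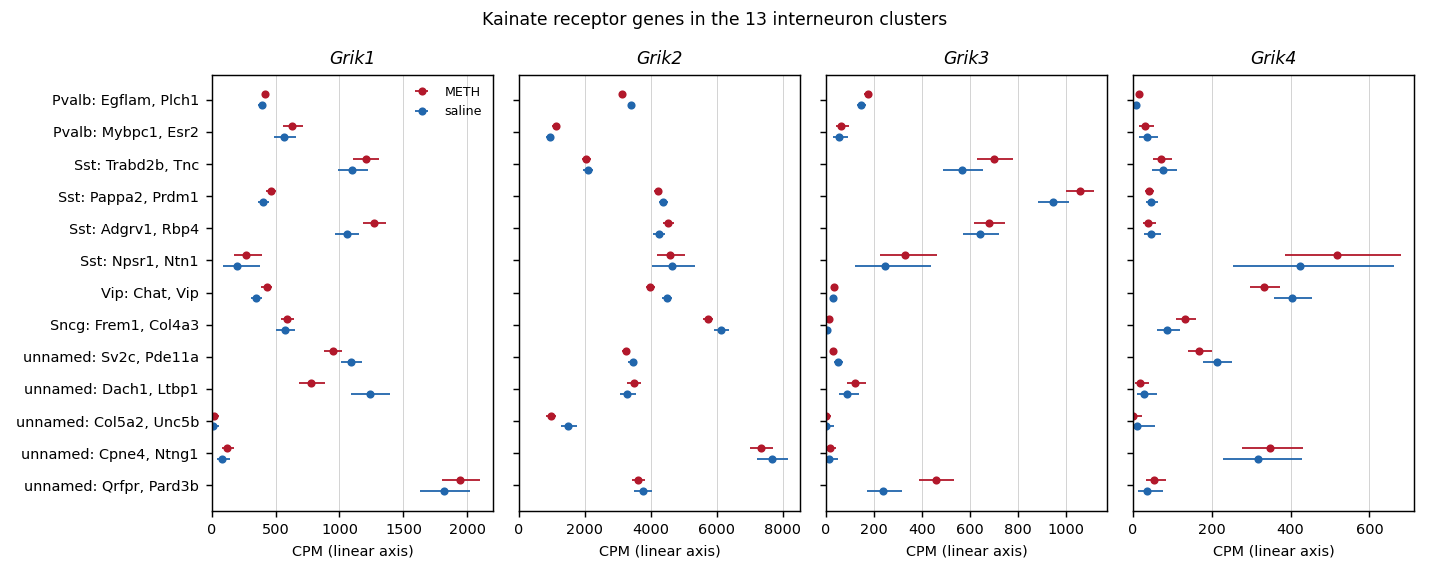
Levels of Grik1 to Grik4 in CPM (linear axes from 0) in the 13 interneuron clusters, each labelled by its subclass and leading genes, for the METH (red) and saline (blue) libraries with exact 95% Poisson intervals. The Cpne4 cluster has the highest Grik2 (7345 and 7691 CPM), the Qrfpr cluster the highest Grik1 (1945 and 1816 CPM) and the Sst clusters the highest Grik3.

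Across the 7 classes and 9 named subclasses of both libraries (32 points), the gene most like Grik1 in log2 level was Erbb4, the neuregulin receptor gene of interneurons (Pearson r = 0.90), followed by Sytl5 (0.90). For Grik2 the most alike were the unnamed gene AABR07045621.1 (0.87), Zfp536 (0.85) and Grik1 itself (0.83). Grik3 was most like Lmo3 (0.86), Map2k4 (0.83) and Ephb6 (0.82), and Grik4 most like Ppp1r9a (0.84), Sh3gl3 (0.80) and Slitrk1 (0.77). Grik5 followed the neuronal sodium channel gene Scn8a (0.94), Atl1 (0.93) and Spred2 (0.93), and Grid1 followed Mboat2 (0.78) and Trpm3 (0.75). These are descriptions over 8957 genes. The points share libraries, depth and, for a class and its subclasses, nuclei, so they are not independent.

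The METH and saline libraries were then compared gene by gene. A gene had to reach 100 UMIs in the libraries together and 20 CPM in 1 of them to be measured in a cell type. It passed the size rule where the whole counting interval of its ratio lay past 1.5-fold in one direction. None of the 25 measured values in classes passed it, where 0.322% of all genes did in excitatory neurons, 0.291% in inhibitory neurons, 0.772% in astrocytes, 0.736% in oligodendrocytes, 0.122% in oligodendrocyte precursors, 3.05% in endothelial and 2.02% in mural nuclei. None of the 66 measured values in neuron subclasses passed it either, where the share of all genes was 0.327% in layer 2/3, 0.0873% in the Pld5 cluster, 0.268% in layer 4/5, 0.241% in deep-layer nuclei, 0.113% in the Il1rapl2 cluster, 0.315% in the Vat1l cluster, 0.139% in near-projecting and 0.348% in corticothalamic nuclei. Among interneurons it was 0.146% in the Pvalb, 0.288% in the Sst, 0.145% in the Vip and 0.108% in the Sncg subclass and 0.472% in the Sv2c cluster. Outside these cell types 1 value passed it. An unnamed cluster of shallow nuclei (157 METH and 78 saline, median 1422 UMIs), led by Ndst4 and mitochondrial genes, held Grik2 at 2105 CPM (1995 to 2219, 1370 UMIs) in METH and 1170 CPM (998 to 1363, 165 UMIs) in saline. The ratio was 0.85 (0.61 to 1.09), in a cluster where 13% of all genes passed the rule. At the background shares of the compared cell types a count of 0 among so few genes says little about the members. Ratios (log2 METH over saline, with exact 95% counting intervals) ran from -0.62 to 0.43 in classes and from -0.37 to 0.62 in subclasses. With 1 library per group no test between groups was possible.

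**Figure D4:**
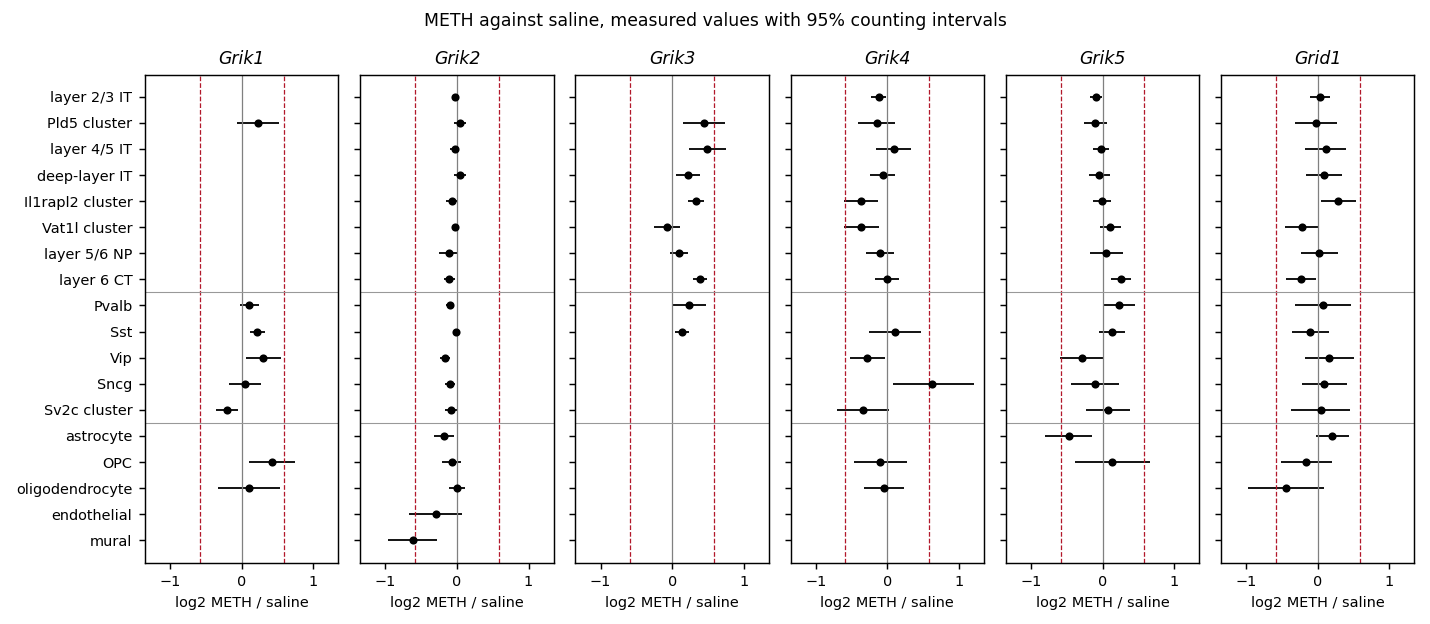
Log2 ratio of METH over saline for each receptor gene in each cell type where it was measured, with exact 95% counting intervals. Red dashed lines mark 1.5-fold in either direction, and no value lies past a line together with the bound of its interval nearest to 0. Grik3 ratios lie above 0 in 8 of 9 neuron subclasses.

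Grik3 ratios lay mostly above 0. Its level in excitatory neurons was 280 CPM (273 to 287, 6266 UMIs) in METH and 217 CPM (212 to 223, 5523 UMIs) in saline, a log2 ratio of 0.36 (0.31 to 0.41). The ratio was above 0 in 8 of the 9 neuron subclasses where the gene was measured, with the interval above 0 in 7. Of all genes measured in these subclasses, 44.1% (deep-layer) to 53.3% (near-projecting) lay above 0. The Grik3 ratio was 0.49 (0.23 to 0.75) in layer 4/5 and 0.39 (0.29 to 0.49) in layer 6 corticothalamic nuclei. It was 0.33 (0.22 to 0.44) in the Il1rapl2 cluster and 0.23 (0.06 to 0.40) in deep-layer intratelencephalic nuclei. In near-projecting nuclei, where its level was highest, it was 0.10 (-0.03 to 0.23), and in the Vat1l cluster -0.08 (-0.25 to 0.10). Inhibitory neurons had a ratio of 0.16 (0.07 to 0.25), from 320 and 286 CPM, and Sst interneurons 0.14 (0.04 to 0.24).

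The makeup of the excitatory class differed between the libraries, for subclasses with much and with little Grik3. Near-projecting nuclei, rich in Grik3, were 11% of METH and 6.07% of saline excitatory nuclei, and the Pld5 cluster was 8.39% and 14.3%. Layer 2/3 nuclei, with the least Grik3, were 30.1% and 22.8%, while deep-layer intratelencephalic nuclei were 6.15% and 9.03% and the Il1rapl2 cluster 8.62% and 10.5%. With every subclass weighted alike, the ratio of Grik3 in excitatory neurons was 0.24, and with nuclei of the libraries matched on UMIs it was 0.54. Summed inhibitory markers, from cells that also hold Grik3, were at 27.3 and 27.5 CPM in excitatory neurons, but at 49.4 CPM in METH and 29.8 CPM in saline corticothalamic nuclei. Their part in the corticothalamic ratio was not tested. In the Pld5 cluster the ratio of Grik3 in closest to layer 2/3 intratelencephalic nuclei was 0.45 (0.16 to 0.74), but -0.76 after thinning to 1000 UMIs and -0.18 without doublet removal. The thinned value rests on few counts, since 10 of 180 METH and 39 of 500 saline nuclei had a Grik3 UMI then.

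Grik2 hardly differed in neurons, with ratios of 0.03 (0.01 to 0.05) in excitatory and -0.04 (-0.07 to -0.02) in inhibitory neurons. Of all genes measured in a subclass, 43.3% (layer 2/3) to 53.3% (near-projecting) lay above 0. Grik2 was below 0 in 11 of 13 subclasses, and its interval lay below 0 in 5. It was lowest in the Vip subclass, at -0.17 (-0.24 to -0.10). In mural nuclei, the smooth muscle cells and pericytes of vessels, it had 111 UMIs (625 CPM) in METH and 199 UMIs (958 CPM) in saline, a ratio of -0.62 (-0.96 to -0.27). The ratio of Grik2 in mural nuclei turned to 0.41 with nuclei matched on UMIs and to 0.32 at a clustering resolution of 2. Excitatory markers summed to 417 and 626 CPM in the same mural nuclei, and their part in the ratio was not tested.

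Grik1 in excitatory neurons, at 12.4 and 17.9 CPM, was below the measuring limit of 20 CPM and its ratio was -0.53 (-0.75 to -0.31). In the Pld5 cluster, where most of it lies, the ratio was 0.23 (-0.06 to 0.52), and that cluster was a smaller share of the METH nuclei. For Grik1 in excitatory neurons the ratio was -0.66 without the Pld5 cluster, -0.10 with subclasses weighted alike and 0.23 with at least 1000 genes per nucleus. Ratios in interneurons were 0.22 (0.11 to 0.32) in the Sst subclass, 0.30 (0.07 to 0.54) in the Vip subclass and -0.20 (-0.35 to -0.05) in the Sv2c cluster. For Grik1 in Vip interneurons the ratio was 0.12 with at least 1000 genes per nucleus and -0.0093 (-0.36 to 0.34) at a clustering resolution of 2. For Grik1 in oligodendrocyte precursor nuclei (179 and 149 UMIs) the ratio was 0.43 (0.10 to 0.75), and it was 0.11 with at least 1000 genes per nucleus.

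The high-affinity subunits and Grid1 gave ratios on both sides of 0. Grik4 was at -0.01 (-0.07 to 0.05) in excitatory neurons and -0.11 (-0.26 to 0.04) in inhibitory neurons. Its 2 widest values were 0.62 (0.07 to 1.20) in Sncg interneurons, from 118 and 36 UMIs, and -0.37 (-0.61 to -0.12) in the Il1rapl2 cluster, from 227 and 368 UMIs. Grik5 was at -0.02 (-0.06 to 0.02) in excitatory neurons and 0.26 (0.12 to 0.39) in layer 6 corticothalamic nuclei. In astrocytes, where it had 139 and 190 UMIs, it was at -0.47 (-0.80 to -0.15). Of all 4663 genes measured in astrocytes, 38.6% lay above 0, with a median of -0.07. Grid1 was at 0.09 (0.02 to 0.17) in excitatory neurons and 0.20 (-0.02 to 0.43) in astrocytes.

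As a list, the 5 kainate and delta receptor genes measured in excitatory neurons had a median ratio of 0.03, beside -0.01 over all 7147 genes measured there. In inhibitory neurons all 6 were measured, with a median of 0.05 beside -0.01 over 7548 genes. Of the 13 listed partners of kainate receptors (auxiliary, scaffold, RNA editing and SUMO genes), 8 were measured in either neuron class and none passed the size rule. Their medians were -0.03 in excitatory and -0.01 in inhibitory neurons. The auxiliary subunit gene Neto1 was at 634 and 670 CPM in excitatory and 1533 and 1550 CPM in inhibitory neurons, with ratios of -0.08 and -0.02. The scaffold gene Dlg4 was at 83.8 and 91 CPM in excitatory neurons (-0.12, -0.21 to -0.03) and 47.9 and 61.5 CPM in inhibitory neurons (-0.36, -0.57 to -0.15). Cask, another scaffold gene, had ratios of -0.20 (-0.25 to -0.15) and -0.16 (-0.26 to -0.05).

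Of the 11 listed genes around delta receptors (cerebellins, neurexins and postsynaptic partners among them), 6 were measured in each neuron class with none past the rule. Nrxn3, a presynaptic neurexin gene, had a ratio of -0.22 (-0.23 to -0.21) in excitatory neurons. In inhibitory neurons the synaptic adhesion gene Il1rapl1 had -0.18 (-0.21 to -0.16) and the phosphatase gene Ptpn4 -0.04 (-0.12 to 0.04). In endothelial nuclei Nrxn3 passed the rule, at 1864 CPM (400 UMIs) in METH and 3457 CPM (833 UMIs) in saline, a ratio of -0.89 (-1.07 to -0.72). Excitatory markers there were at 340 and 519 CPM, and their part in it was not tested. The 4 AMPA receptor genes were all measured in both neuron classes, with medians of -0.07 and -0.04 and none past the rule. Gria1 (-0.15) and Gria4 (-0.11) had the widest ratios in excitatory neurons and Gria3 (-0.09) and Gria4 (-0.07) in inhibitory neurons. Of 7 NMDA receptor genes, 4 were measured in excitatory and 5 in inhibitory neurons, with medians of -0.12 and -0.00 and none past the rule. The NMDA subunit gene Grin2a was at 452 and 567 CPM in excitatory neurons, a ratio of -0.33 (-0.36 to -0.29), and had -0.18 (-0.26 to -0.10) in inhibitory neurons. Grin3a, the gene of a subunit that lowers calcium entry, had -0.18 in excitatory and 0.20 in inhibitory neurons.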

How the data were processed

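Nuclear RNA was profiled with the Chromium 3' v3.1 chemistry, per the labels' protocols. Values are the deposited raw UMI counts for each gene and barcode. Per the file headers, Cell Ranger 7.0.0 produced them. The submitters' processing notes name the build hg38, while the deposited gene tables carry rat Ensembl identifiers. Neither the rat build nor the counting of intron reads is stated there, and 3' tags were not divided by gene length, so levels are compared within a gene only.

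Barcodes below 500 genes or above 5% mitochondrial UMIs were dropped, and doublets were called with Scrublet (expected rate 0.06, scanpy 1.11.5) and removed: 328 METH (5.98%) and 401 saline (5.80%). The libraries were clustered together (2000 variable genes without the 6 genes and the listed genes, 30 components, 15 neighbours, Leiden resolution 1, 0.5 within neurons). Clusters were named from listed markers with thresholds chosen once the clusters' marker levels were known. Of the kept nuclei, 559 METH (10.8%) and 356 saline (5.47%) stayed unnamed, and microglia (38 and 76 nuclei) and fibroblasts (42 and 17) had too few nuclei in 1 library to be compared.

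UMIs were summed per class and library and scaled to the CPM unit. Levels have exact Poisson intervals, ratios exact conditional binomial intervals and shares Clopper-Pearson intervals, all at 95% and covering counting error only. Thinned shares drew 1000 UMIs per nucleus and left out shallower nuclei. Simulated counts were used to check the size rule. The genes most alike were the 3 with the highest Pearson r of log2(CPM + 1), and the partners named are the 2 of each list with the largest absolute ratio in a neuron class, with Neto1 added after its values were seen; 2 of the genes these rules name are not reported here. The members, lists and partners were chosen with earlier results of these data known. Alternatives covered filters, clustering, scaling (edgeR 4.0.16 TMM factors among them), depth and weighting; leaving out the Pld5 cluster, and the highest cell type without doublet removal, with centring or with the 6 genes kept, were added after seeing the data. Pairs of cell types compared by fold were picked by their levels. The partner Senp1 has 2 rows and was left out. Gene symbols come from the deposited tables.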

Additional observations from a re-analysis of the deposited data

Results flagged for a closer look

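In 5 of the 6 genes the ratio of METH over saline had its counting interval above 0 in at least 1 cell type and below 0 in at least 1 other. The share of all genes with such a pair was not computed, so this count is not a trait of these genes. Pairs were formed among classes or among neuron subclasses, not across them. For each gene 1 pair is given, with the highest and the lowest such ratio. None of these differences between cell types was tested, since each rests on 1 library per group. Grik1 was at 0.30 in Vip interneurons and -0.20 in the Sv2c cluster, but Grik1 in Vip interneurons was at -0.0093 at a clustering resolution of 2. Grik2 was at 0.027 in excitatory neurons and -0.62 in mural nuclei. Over the processing settings these ran from -0.15 to 0.55 and from -0.65 to 0.41. Grik4 was at 0.62 in Sncg interneurons (0.40 to 1.1 over the settings) and -0.37 in the Il1rapl2 cluster (-0.84 to 0.30). Grik5 was at 0.26 in layer 6 corticothalamic (0.13 to 0.80) and -0.10 in layer 2/3 intratelencephalic nuclei (-0.19 to 0.40). Grid1 was at 0.29 in the Il1rapl2 cluster (0.028 to 0.95) and -0.23 in layer 6 corticothalamic nuclei (-0.37 to 0.31). Under the main settings none of these ratios passed the size rule.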

How the results depend on the processing

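No paired analysis was possible because each group has 1 library. The count of measured values past the size rule was 0 in classes and 0 in subclasses under the main settings. With each nucleus or each subclass weighted alike there was no counting interval, so the rule could not be applied. Leaving out the Pld5 cluster was kept out of this count. Under every other alternative the count was 0, except the following. With UMIs per nucleus in place of CPM, 1 value in classes (Grik3 in excitatory neurons, 0.88) and 7 in subclasses passed it, all higher in METH, whose nuclei were deeper; these 7 were Grik3 in layer 6 corticothalamic nuclei, layer 4/5 nuclei, deep-layer nuclei, the Il1rapl2 cluster and the Pld5 cluster, Grid1 in the Il1rapl2 cluster and Grik5 in layer 6 corticothalamic nuclei. With no low-count filter, 1 value in classes passed it, Grik3 in endothelial nuclei (3 and 23 UMIs), and 1 in subclasses, Grik1 in the Il1rapl2 cluster (4 and 23 UMIs). A single ratio was counted as moved where its new value lay outside the counting interval of the main ratio. The counting error of the new value was left out, and matching and thinning use fewer UMIs. With UMIs per nucleus 82 of 92 moved (43 changed sign). With nuclei matched on UMIs 30 of 92 moved (24 changed sign), and after thinning to 1000 UMIs 40 of 92 (17 changed sign). Under each change of filter, clustering, TMM scaling or nucleus weight 0 to 6 moved. With subclasses weighted alike 6 of 12 moved. The cause was not tested. TMM scaling shifted every oligodendrocyte ratio by 0.18. The cell type with the highest level was the same in both libraries for 5 of 6 genes, and for 4 with each library centred before clustering; which cell type it was differed between settings for each of the 6, for example Sst in place of near-projecting nuclei for Grik3 at resolution 2.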

Other observations

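Nuclei outside the compared classes also held the receptor genes. A cluster led by Bcas1, Enpp6 and Tcf7l2, genes of newly forming oligodendrocytes, had 46 METH and 35 saline nuclei and held Grid1 at 374 CPM (295 to 468) and 355 CPM (255 to 482). Grik4 was at 251 and 268 CPM there and Grik1 at 113 and 173 CPM. The cluster with inhibitory markers that came almost wholly from the METH library held Grik2 at 1744 CPM (1635 to 1859), Grik5 at 273 CPM, Grik3 at 172 CPM, Grik1 at 98.9 CPM and Grik4 at 71.5 CPM, so its Grik1 lies below that of every interneuron subclass compared. Microglia had 44 and 43 UMIs of Grik2 (727 and 407 CPM), with 70.5% of the METH UMIs from 1 nucleus, and at most 6 UMIs of any other receptor gene in either library. Fibroblasts had 22 and 9 UMIs of Grik2 (256 and 295 CPM) and 0 UMIs of Grik1 in both libraries.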
